A study of Mus musculus with 6 samples.

Results

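Collagens of 3 structural classes were measured in mouse mammary tumors after treatment with vehicle or with a drug combination. The 10 genes were 5 fibrillar collagens (Col1a1, Col1a2, Col3a1, Col5a1 and Col5a2), 2 basement membrane collagens (Col4a1 and Col4a2) and 3 microfibril collagens (Col6a1, Col6a2 and Col6a3). They were chosen by name and class from 12393 genes on the array, with earlier results of these data known. All 10 had at least 1 probe set annotated with a single gene symbol, and 18 probe sets covered them in all. Each gene is represented by the probe set whose mean across the 6 arrays was highest.

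The vehicle group held 3 tumors from mice given vehicle for 21 days. The drug group held 3 tumors from mice given VX680 (which inhibits Aurora kinases), miltefosine (an alkylphosphocholine) and WP1066 (which blocks JAK2 and STAT3 signalling), also for 21 days. Strain, age, tumor model and doses were not given in the sources used here. Each tumor RNA was hybridised to 1 Affymetrix mouse array, and precision is limited by there being 3 arrays per group. Whether the samples of a group are separate tumors or separate animals is not stated, and each sample is called a tumor here. The spread behind each p-value is therefore that between samples and may be technical. Array medians over all probe sets lay between 6.70 and 6.73 on the log2 scale. The epithelial markers of the labelled tissue were bright on every array, with Epcam, an adhesion molecule of epithelia, at 11.88 to 12.004 and Krt8, a luminal keratin, at 12.40 to 12.67.

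Collagens are secreted as chains that wind around each other into a helix. Type I collagen is built from the Col1a1 and Col1a2 chains and type III from Col3a1 alone, and both assemble into the thick fibrils of connective tissue, while type V, from Col5a1 and Col5a2, is built into those fibrils and helps to set their width. Type IV collagen, from Col4a1 and Col4a2, forms the network of the basement membrane under epithelia and around vessels. Type VI collagen, from Col6a1, Col6a2 and Col6a3, forms beaded microfibrils between the basement membrane and the fibrils. In mammary tumors fibroblasts are the main source of the fibrillar and microfibril chains, and type IV chains are also made by vessel and epithelial cells.

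Several members lie next to each other in the genome. In RefSeq's GRCm38.p6 gene table no protein-coding gene lies between Col3a1 and Col5a2 on chromosome 1, between Col4a1 and Col4a2 on chromosome 8, or between Col6a1 and Col6a2 on chromosome 10. The RefSeq promoter table held 9 promoter windows for 8 of the 10 members, and Col1a1 and Col5a2 had no entry. Col4a1 and Col4a2 are read in opposite directions from annotated starts that overlap by 22 bases, at chr8:11312805-11312826. That stretch is shown because it begins both basement membrane transcripts, first as read for Col4a1 (minus strand) and then for Col4a2 (plus strand).
Col4a1: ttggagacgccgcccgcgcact
Col4a2: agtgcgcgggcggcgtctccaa

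Upstream sequences are shown for Col1a2 and Col3a1, the fibrillar genes with the smallest and the largest difference between the groups. Neither difference passed limma's adjusted p of 0.05, and a relation between sequence and difference was not tested. The 250 bases before the RefSeq start (GRCm38.p6) are shown for Col1a2, at chr6:4505368-4505617 on the plus strand, and for Col3a1, at chr1:45311288-45311537 on the plus strand. Capitals mark CCAAT and TATAAA on either strand.
Col1a2: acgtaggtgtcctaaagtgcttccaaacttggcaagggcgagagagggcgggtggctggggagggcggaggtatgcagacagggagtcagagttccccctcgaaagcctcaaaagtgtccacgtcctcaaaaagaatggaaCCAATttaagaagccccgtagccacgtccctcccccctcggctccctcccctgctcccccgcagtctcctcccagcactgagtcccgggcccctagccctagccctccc
Col3a1: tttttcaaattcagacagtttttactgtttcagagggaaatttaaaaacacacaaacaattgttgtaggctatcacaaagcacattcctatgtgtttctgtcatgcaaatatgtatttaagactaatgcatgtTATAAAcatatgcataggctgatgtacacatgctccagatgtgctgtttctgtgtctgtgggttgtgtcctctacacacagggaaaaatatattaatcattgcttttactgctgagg
The Col1a2 window was 62.0% G and C and held CCAAT 109 bases before the start, and the Col3a1 window was 35.2% G and C and held TATAAA 117 bases before the start. The window of Col5a1, the only other fibrillar gene with an entry, was 76.4% G and C and held neither motif. Its difference between the groups, 0.29, was the second largest of the class. Over all 32851 windows of the table the median was 52.4% G and C. CCAAT or its reverse ATTGG occurred in 33.8% of them and TATAAA or its reverse TTTATA in 12.4%. Neither motif overlaps the other in these windows, and a match is a description of the letters, not a binding site.

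The comparison of drug-treated with vehicle-treated tumors asked whether collagen transcripts differed after treatment. All 10 collagens had a higher mean in the drug group, by 0.05 to 0.39 on the log2 scale, and none of these differences passed the test. The background over the whole array was that 47.9% of genes had a higher mean in the drug group. With limma, 0 of the 10 reached an adjusted p under 0.05, against a background of 0% of all genes. None of the 10 had an unadjusted p under 0.05, against 10.3% of all genes, made up of 5.37% higher and 4.91% lower in the drug group. The groups overlapped in all 10, whereas they did not overlap in 17.1% of all genes. The median difference was 0.18 over the 10 collagens and -0.01 over all genes. The genes share tumors and rose and fell together over the arrays, so their shared direction is not 10 separate observations.

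Within the fibrillar class, Col3a1, the type III chain, had the largest difference. Its log2 values were 12.12, 11.47 and 12.67 in the vehicle tumors and 12.39, 12.53 and 12.51 in the drug tumors. The drug values lay close together inside the range of the vehicle values. The vehicle mean was 12.09 ± 0.60 and the drug mean 12.48 ± 0.08 (SD, n = 3 each). The drug mean was 1.31-fold higher, with a log2 difference of 0.39 ± 0.28 (SE) and a limma adjusted p = 0.674.

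Type I collagen, the most abundant fibril protein of connective tissue, showed the same arrangement with smaller differences. Col1a1 had values of 10.60, 10.12 and 11.01 in vehicle and 10.61, 10.74 and 10.93 in drug tumors. All drug values again lay between the second and the third vehicle tumor. The difference was 0.18 ± 0.22 (SE, n = 3 per group), with a limma adjusted p = 0.820. Col1a2 had values of 12.35, 12.01 and 12.67 in vehicle and 12.31, 12.41 and 12.44 in drug tumors. Its difference of 0.05 ± 0.16 (SE, n = 3 per group; limma adjusted p = 0.947) was the smallest of the 10.

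The type V chains followed the same order of vehicle tumors. Col5a1 had values of 8.55, 8.31 and 9.16 in vehicle and 8.85, 8.92 and 9.10 in drug tumors, a difference of 0.29 ± 0.21 (SE; limma adjusted p = 0.689, n = 3 per group). Col5a2 had values of 10.31, 10.005 and 10.79 in vehicle and 10.49, 10.44 and 10.71 in drug tumors, a difference of 0.18 ± 0.20 (SE; limma adjusted p = 0.796, n = 3 per group). In each of the 5 fibrillar genes vehicle replicate 2 was the lowest and vehicle replicate 3 the highest of the 6 arrays, and the drug values lay inside the vehicle range. Over all genes, the drug values lay inside the vehicle range in 16.7%.

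**Figure D1:**
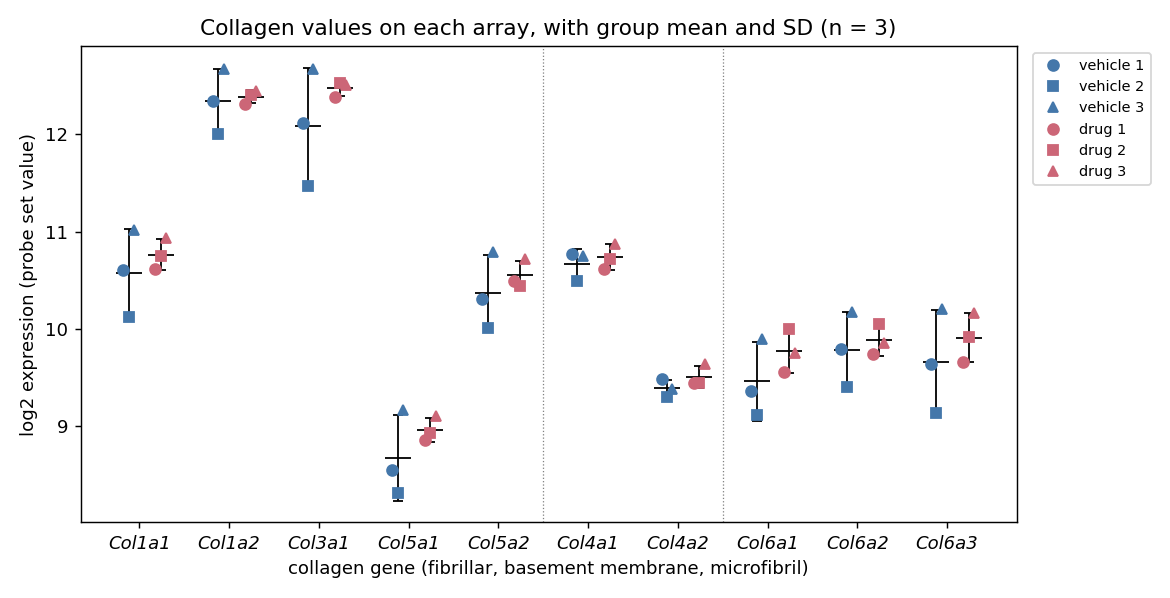
Log2 expression of the 10 collagens (y axis) on each array, with vehicle in blue, drug in red, a symbol per replicate, and a black bar for the mean and SD of each group (n = 3). Dotted lines part the fibrillar, basement membrane and microfibril genes. The vehicle points of fibrillar and microfibril genes spread widely, with vehicle 2 lowest in all 10 genes, and the drug points overlap them in every gene. Levels of different genes come from different probe sets and are not comparable.

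The basement membrane chains differed least among the tumors. Col4a1 had values of 10.77, 10.49 and 10.74 in vehicle and 10.61, 10.72 and 10.88 in drug tumors. The group means were 10.67 ± 0.15 and 10.73 ± 0.13 (SD, n = 3 each), a difference of 0.06 ± 0.10 (SE) with a limma adjusted p = 0.875. Col4a2 had values of 9.48, 9.30 and 9.38 in vehicle and 9.44, 9.44 and 9.64 in drug tumors. The group means were 9.39 ± 0.09 and 9.51 ± 0.11 (SD, n = 3 each), a difference of 0.12 ± 0.08 (SE) with a limma adjusted p = 0.642. In both genes vehicle replicate 2 was the lowest array and drug replicate 3 the highest, and vehicle replicate 3, the highest in every fibrillar gene, was the third highest for Col4a1 and the second lowest for Col4a2.

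The microfibril chains resembled the fibrillar ones. Col6a1 had values of 9.36, 9.11 and 9.90 in vehicle and 9.55, 9.998 and 9.75 in drug tumors, a difference of 0.31 ± 0.21 (SE; limma adjusted p = 0.665, n = 3 per group). Its highest value was that of drug replicate 2, so the groups overlapped without the drug values lying wholly inside the vehicle range. Col6a2 had values of 9.79, 9.40 and 10.17 in vehicle and 9.74, 10.05 and 9.85 in drug tumors, a difference of 0.09 ± 0.19 (SE; limma adjusted p = 0.903, n = 3 per group). Col6a3, the longest type VI chain, had values of 9.64, 9.14 and 10.21 in vehicle and 9.65, 9.91 and 10.16 in drug tumors, a difference of 0.25 ± 0.27 (SE; limma adjusted p = 0.796, n = 3 per group). Both had their highest value in vehicle replicate 3.

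A difference that misses the threshold does not show that the groups were alike. The 95% interval of the drug minus vehicle difference ran from -0.28 to 1.06 for Col3a1, from -0.35 to 0.71 for Col1a1 and from -0.21 to 0.83 for Col6a1. It was narrower for the basement membrane chains, from -0.18 to 0.31 for Col4a1 and from -0.07 to 0.32 for Col4a2. Changes of the size seen in Col3a1 (0.39) lay outside the intervals of both type IV chains and inside those of all fibrillar and microfibril chains.

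The other probe sets of the members pointed the same way as those used. In all 18 probe sets the drug mean was higher, and the groups overlapped in each. Col3a1's second probe set had values of 8.22, 7.25 and 8.94 in vehicle and 8.55, 8.55 and 8.74 in drug tumors, a difference of 0.48 ± 0.38 (SE, n = 3 per group). Col1a1's second probe set differed by 0.06, against 0.18 for the one used, and Col1a2's by 0.11, against 0.05. The 3 Col5a1 probe sets differed by 0.29, 0.21 and 0.17, those of Col5a2 by 0.18 and 0.10, those of Col4a1 by 0.06 each, and those of Col6a2 by 0.09 and 0.07. Probe sets of a gene share the tumor RNA and are not replicates.

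**Figure D2:**
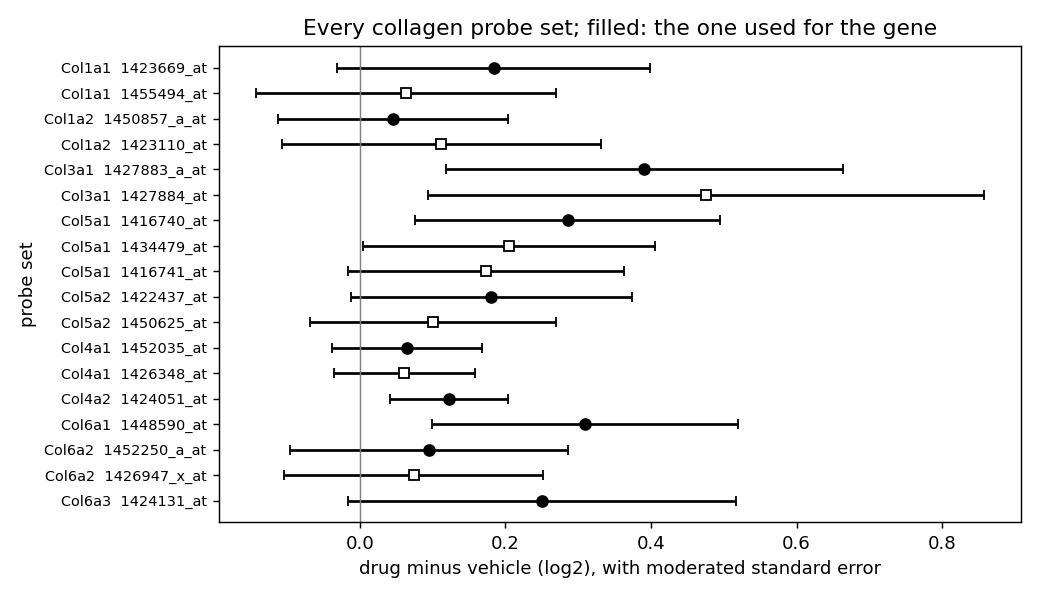
Drug minus vehicle difference on the log2 scale (x axis) for each of the 18 collagen probe sets (y axis), with the moderated standard error of limma as bars. Filled points are the probe sets used for the gene and open squares the others. Every point lies to the right of 0, with the largest value, 0.48, at the second Col3a1 probe set.

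Class means put the 3 structural groups on 1 scale. For each gene the values were centred on its mean over the 6 arrays, and the genes of a class were then averaged on each array. No test was made of these means. The fibrillar class stood at -0.13, -0.54 and 0.34 in the vehicle tumors and at 0.01, 0.09 and 0.22 in the drug tumors. The microfibril class stood at -0.15, -0.53 and 0.35 in vehicle and at -0.10, 0.24 and 0.18 in drug tumors. The basement membrane class stood at 0.05, -0.18 and -0.01 in vehicle and at -0.05, 0.01 and 0.18 in drug tumors. The drug group was higher by 0.22 for the fibrillar, 0.22 for the microfibril and 0.09 for the basement membrane class, and the groups overlapped in each.

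The span over the vehicle tumors was wider for the fibrillar and microfibril classes than for the basement membrane class. The fibrillar class spanned 0.88 over the vehicle tumors and 0.21 over the drug tumors, and the microfibril class spanned 0.87 and 0.34. The basement membrane class spanned 0.23 in each group. The gap of microfibril minus fibrillar was -0.01, 0.01 and 0.00 in the vehicle tumors, so that both classes moved together there, and -0.11, 0.15 and -0.04 in the drug tumors. The gap of fibrillar minus basement membrane was -0.19, -0.36 and 0.36 in vehicle tumors and 0.06, 0.09 and 0.04 in drug tumors. Its group means differed by 0.12 and the groups overlapped.

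**Figure D3:**
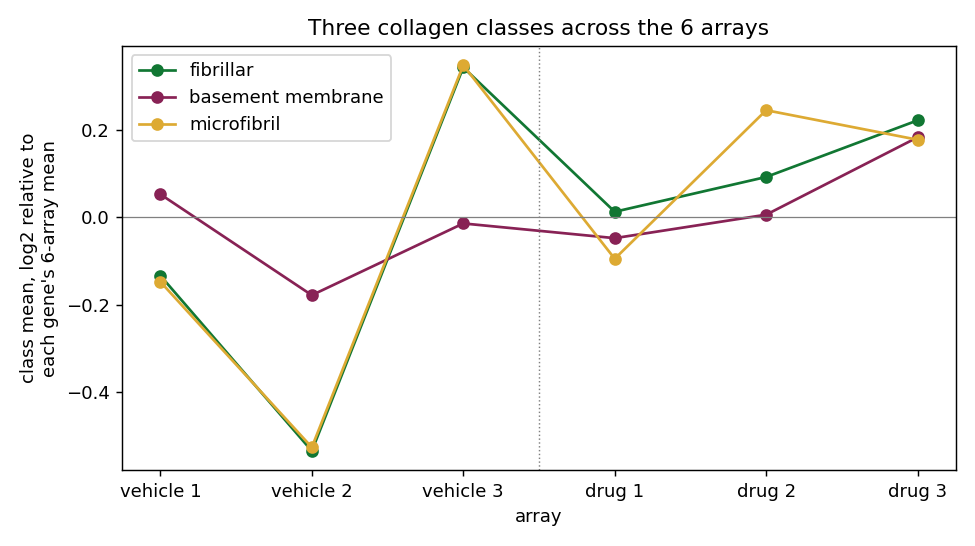
Mean of each collagen class (y axis, log2 relative to each gene's mean over the 6 arrays) on the 3 vehicle and 3 drug arrays (x axis). The fibrillar and microfibril lines run together from -0.54 and -0.53 in vehicle 2 to 0.34 and 0.35 in vehicle 3, and the basement membrane line stays between -0.18 and 0.18. Lines join arrays of no order and only help to follow a class.

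The vehicle tumors differed more from one another in the fibrillar and microfibril genes than in most genes. The vehicle SD of Col3a1 was 0.60, a size reached by 1.42% of all genes, and that of Col6a3 was 0.53, reached by 1.85%. Across the 8 fibrillar and microfibril genes the share of all genes with a vehicle SD at least as large ran from 1.42% to 4.54%. It was 22.1% for Col4a1 and 48.2% for Col4a2. The vehicle SD exceeded the drug SD in 9 of the 10 collagens and in 47.9% of all genes, and Col4a2 was the exception. The median SD of the 10 was 0.40 in vehicle and 0.14 in drug tumors, against 0.09 in each group over all genes. With 3 tumors per group, no test of these spreads was made.

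The size of the group difference, and its direction in 6 of the 10 genes, changed when vehicle replicate 2 was left out. Vehicle replicate 2 was the lowest array in all 10 collagens, as it was in 13.4% of all genes. Leaving it out therefore lowers the difference of each of the 10. Without it the fibrillar difference was 0.00, the microfibril difference 0.01 and the basement membrane difference 0.03, and 6 of the 10 genes had a lower mean in the drug group. Without vehicle replicate 3 the differences were 0.44, 0.45 and 0.11. In that setting 5 of the 10 genes had an unadjusted p under 0.05, against 10.1% of all genes, and 0 an adjusted p under 0.05. Vehicle replicate 3 was the highest array in 7 of the 10, so leaving it out raises the differences. These genes moved together and are not separate observations. With any other single array left out, 0 of the 10 had an unadjusted p under 0.05. Without drug replicate 3 the basement membrane difference was 0.03, and 1 of the 10 genes, Col4a1, had a lower mean in the drug group (-0.0058).

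**Figure D4:**
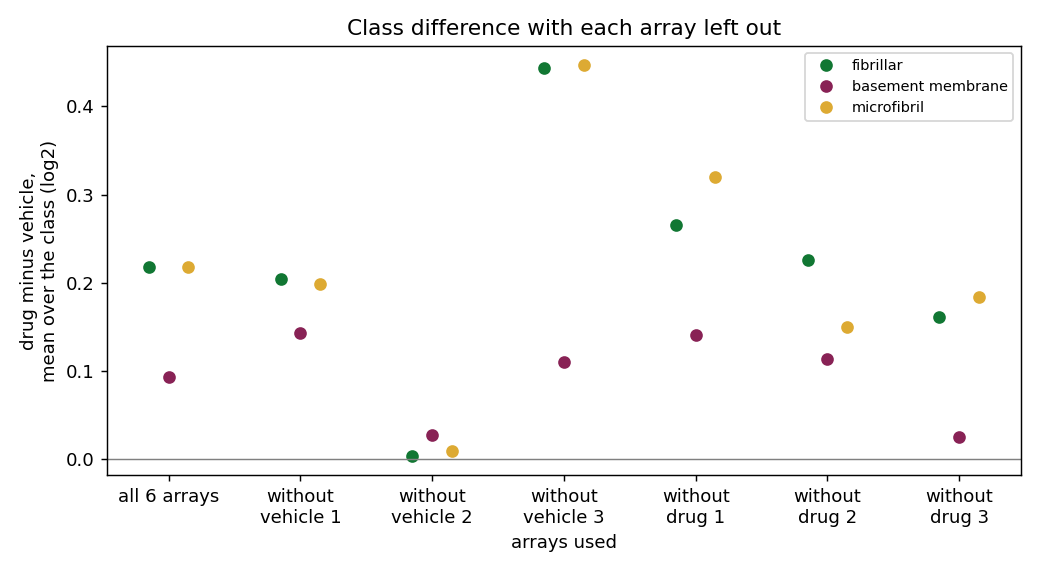
Drug minus vehicle difference of each class mean (y axis, log2) with all 6 arrays and with each array left out in turn (x axis). All 3 classes fall to between 0.00 and 0.03 without vehicle 2, and the fibrillar and microfibril classes reach 0.44 and 0.45 without vehicle 3.

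Markers of stromal cells moved over the same arrays. In bulk tumor RNA, fewer cells of a type and less RNA per cell cannot be told apart. A list of 15 fibroblast markers without collagens, all measured, had class means of -0.12, -0.51 and 0.35 in vehicle and 0.05, 0.09 and 0.15 in drug tumors. The gap of these markers minus the fibrillar collagens was between -0.07 and 0.03 over the 6 arrays, so the fibroblast markers and the fibrillar collagens ran side by side. Of the 15 markers 12 had higher means in the drug group, and vehicle replicate 2 was the lowest array in 12. Pdgfra, a receptor of fibroblasts, ranged from 6.497 to 7.60 in vehicle and from 6.89 to 7.39 in drug tumors, and Thy1, a surface protein of fibroblasts, from 5.99 to 7.42 and from 6.71 to 7.12. No fibroblast marker passed limma's adjusted p of 0.05. Before adjustment 2 of the 15 reached 0.05, both higher in the drug group, against 10.3% of all genes (5.37% higher). S100a4 differed by 0.66 ± 0.20, with all drug above all vehicle values, as in 7.73% of all genes. Mfap5 differed by 0.35 ± 0.14, with overlapping groups (SE, n = 3 per group). With the fibroblast marker mean as a covariate the fibrillar difference was 0.02, the microfibril difference 0.02 and the basement membrane difference 0.05. The covariate nearly repeats the fibrillar profile, so such a fit shrinks the difference whatever its source. The part of fibroblast content in the collagen values was not tested.

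Markers of other cell types shared part of this pattern. The endothelial, pericyte and smooth muscle, and adipocyte means were also lowest in vehicle replicate 2 and highest in vehicle replicate 3. For the endothelial markers the margin at the top was narrow, 0.1354 against 0.1346 in drug replicate 3. The 16 endothelial markers spanned -0.21 to 0.14 in vehicle and -0.08 to 0.13 in drug tumors. The 11 pericyte and smooth muscle markers spanned -0.20 to 0.22 and -0.14 to 0.10. Of the endothelial markers 8 had higher and 8 lower means in the drug group, with a median of -0.0027. The endothelial receptor Kdr, the marker with the smallest p, had values of 6.93, 6.84 and 6.88 in vehicle and 6.67, 6.68 and 6.76 in drug tumors, with a difference of -0.18 ± 0.05 (SE, n = 3 per group; limma adjusted p = 0.398), and its groups did not overlap. Flt1, another such receptor, differed by 0.22 ± 0.10, with overlapping groups. Of the 16 endothelial markers 1, Kdr, had groups that did not overlap, against 17.1% of all genes. Of 12 adipocyte markers 10 were measured, and their means spanned -1.06 to 1.23 in vehicle and -0.57 to 0.88 in drug tumors. The 20 skeletal muscle markers spanned -0.71 to 2.64 in vehicle and -2.35 to 1.67 in drug tumors. All 20 had lower means in the drug group, with a median of -1.71, and 0 had an unadjusted p under 0.05. The adipocyte markers had a median difference of -0.04, with 4 of 10 higher, and the pericyte and smooth muscle markers one of 0.03, with 7 of 11 higher. Vehicle replicate 3, highest in fibrillar collagen, was also the highest array in muscle and adipocyte markers, whereas drug replicate 3, the drug array highest in fibrillar collagen, was the lowest in muscle markers. Vehicle replicate 3 and drug replicate 1 were the arrays richest in muscle transcripts in their groups. They were also the highest vehicle and the lowest drug array in the fibrillar and microfibril class means. Leaving them out therefore raises those differences by the choice of arrays. Without them the fibrillar, microfibril and basement membrane differences were 0.49, 0.55 and 0.16. In that fit 6 of the 10 genes had an unadjusted p under 0.05, against 8.42% of all genes, and 0 an adjusted p under 0.05. With the muscle score as a covariate 0 of the 10 had an unadjusted p under 0.05, against 11% of all genes, and with the adipocyte score 1 did, against 9.84% of all genes.

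**Figure D5:**
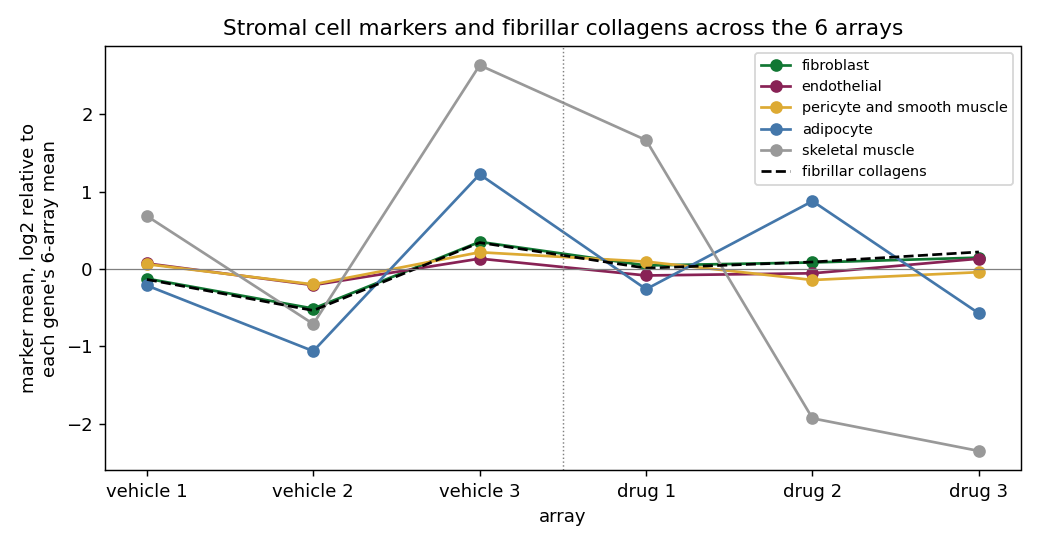
Mean of cell type markers (y axis, log2 relative to each gene's mean over the 6 arrays) on each array (x axis), with the fibrillar collagens dashed. The fibroblast line lies between 0.07 below and 0.03 above the dashed line on every array, while the skeletal muscle line runs from 2.64 in vehicle 3 to -2.35 in drug 3. Lines join arrays of no order.

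Outside the members, the genes whose profile over the 6 arrays lay nearest to a class were found by the root-mean-square distance of centred values, among 6187 genes at or above the median level. Nearest to the fibrillar mean were Fn1, the matrix glycoprotein fibronectin, at a distance of 0.09, Vim, the mesenchymal filament protein vimentin, at 0.09, Pcolce, an enhancer of procollagen cleavage, at 0.09, Cd248, a surface protein of stromal cells, at 0.09, and Htra1, a secreted protease, at 0.10. The fibrillar profile itself had a root-mean-square size of 0.28. Nearest to the microfibril mean were the matrix metalloproteinase Mmp2 at 0.09, Vim at 0.11, Fn1 at 0.12, Cd248 at 0.13 and the membrane protease Mmp14 at 0.14. The genes nearest to the basement membrane mean were Nt5c, Cyb561, Gng11, Khdc4 and Abhd16a, at 0.04 to 0.05, where the profile itself had a size of 0.11. With 6 arrays and 6187 genes some small distances arise for any profile. Within the classes, Col1a1 lay 0.05 from the mean of the other fibrillar genes and Col3a1, which varied more, 0.17.

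Of the other collagens 26 of 34 listed were measured, and 17 had higher means in the drug group, with a median difference of 0.04. None passed limma's adjusted threshold of 0.05. Before adjustment 4 reached 0.05, all higher in the drug group, against 10.3% of all genes, of which 5.37% were higher. Col17a1, a transmembrane collagen that anchors basal epithelial cells, had values of 7.56, 7.59 and 7.06 in vehicle and 8.52, 7.90 and 8.30 in drug tumors. All its drug values lay above all vehicle values, with a difference of 0.84 ± 0.20 (SE, n = 3 per group; limma adjusted p = 0.352). Col7a1, which forms the anchoring fibrils under stratified epithelia, had values of 7.23, 7.21 and 7.73 in vehicle and 7.995, 7.77 and 7.94 in drug tumors, a difference of 0.51 ± 0.15 (SE; limma adjusted p = 0.396, n = 3 per group). Groups with all drug above all vehicle values made up 7.73% of all genes. Beside these, the basal keratins Krt14 and Krt5 differed by 0.60 ± 0.11 and 0.62 ± 0.17 (SE, n = 3 per group). The part of epithelial composition in the Col17a1 and Col7a1 values was not tested. The third type V chain, Col5a3, differed by 0.54 ± 0.20, with overlapping groups, and Col4a3, a chain of specialised basement membranes, by 0.29 ± 0.09 (SE, n = 3 per group) at values of 3.79 to 4.31, in the low part of the scale.

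The genes of the machinery that makes and matures collagen gave no call. Of 15 measured genes of hydroxylation and folding, 5 had higher and 10 lower means in the drug group, with a median of -0.02, and 0 passed limma's adjusted p of 0.05 or an unadjusted p under 0.05. Serpinh1, the collagen chaperone of the endoplasmic reticulum, had values of 9.34, 9.73 and 10.03 in vehicle and 9.21, 9.36 and 9.50 in drug tumors, a difference of -0.35 ± 0.18 (SE; limma adjusted p = 0.559, n = 3 per group). Vehicle replicate 2, lowest in all 10 collagens, had the second highest Serpinh1 value. Plod2, a lysyl hydroxylase, was highest in vehicle replicate 2, at 9.24, and differed by -0.20 ± 0.09 (SE, n = 3 per group). Of 11 measured genes of procollagen processing and cross-linking 8 were higher on average in the drug group, at a median of 0.05, and 0 had an unadjusted p under 0.05. Lox, the lysyl oxidase that cross-links fibrils, had values of 8.83, 9.17 and 9.43 in vehicle and 9.70, 9.33 and 9.41 in drug tumors, a difference of 0.34 ± 0.17 (SE; limma adjusted p = 0.553, n = 3 per group), and Loxl1 differed by 0.25 ± 0.15 and Bmp1, a procollagen proteinase, by 0.13 ± 0.12.

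Proteoglycans and glycoproteins bound to fibrils varied over the arrays much as the fibrillar collagens did. The 17 measured genes had class means of -0.03, -0.55 and 0.43 in vehicle and -0.01, 0.02 and 0.14 in drug tumors, and 12 of the 17 were lowest in vehicle replicate 2. Of these, 10 had higher means in the drug group, with a median of 0.07 and 0 with an unadjusted p under 0.05. This list shares Dpt and Fbln1 with the fibroblast markers, so the lists are not independent. Thbs2, a matricellular protein of fibroblasts, ranged from 7.95 to 9.37 in vehicle and from 9.02 to 9.55 in drug tumors, Fbln2 differed by 0.28 ± 0.15, and Fmod, a proteoglycan that binds type I collagen, by -0.45 ± 0.31 (SE, n = 3 per group).

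On average the other basement membrane components spanned a narrow range over the arrays, but single genes varied more. The median vehicle SD of these genes was 0.14, against 0.09 over all genes. Of 18 measured, 12 had higher means in the drug group, with a median of 0.05, and their class means spanned -0.12 to 0.05 in vehicle and 0.01 to 0.14 in drug tumors. None passed limma's adjusted threshold of 0.05. Lama3 and Lama2 reached 0.05 before adjustment, near the share of 10.3% over all genes. Lama3, a laminin chain of epithelia, had values of 7.49, 7.75 and 7.70 in vehicle and 8.62, 7.79 and 8.33 in drug tumors, a difference of 0.60 ± 0.21 (SE; limma adjusted p = 0.436, n = 3 per group). Lama2, a laminin chain of muscle and stroma, differed by 0.35 ± 0.13 (limma adjusted p = 0.458). In both all drug values lay above all vehicle values, as in 7.73% of all genes.

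Receptors, degrading enzymes and TGF-beta signalling genes gave few differences. Of 7 measured collagen receptors 4 had higher means, with a median of 0.03. Lair1, an inhibitory collagen receptor of leukocytes, had values of 5.05, 4.89 and 4.82 in vehicle and 4.67, 4.69 and 4.41 in drug tumors, a difference of -0.33 ± 0.10 (limma adjusted p = 0.398). Mrc2, a receptor for the uptake of collagen, had values of 6.84, 6.64 and 6.99 in vehicle and 7.18, 7.07 and 7.01 in drug tumors, a difference of 0.27 ± 0.10 (SE, n = 3 per group; limma adjusted p = 0.460). In both the groups did not overlap, as in 17.1% of all genes.

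Of 16 measured collagen-degrading enzymes and inhibitors 10 had higher means, with a median of 0.12. Mmp13, a collagenase, had values of 9.67, 9.15 and 9.32 in vehicle and 9.92, 9.62 and 11.16 in drug tumors, with drug replicate 3 well above the other arrays, and a difference of 0.85 ± 0.39 (SE, n = 3 per group; limma adjusted p = 0.522). Mmp2, a gelatinase, differed by 0.30 ± 0.16, and the collagenase Mmp8 by -0.16 ± 0.05 at values of 3.58 to 3.80, in the low part of the scale. Of 17 measured TGF-beta signalling genes 8 had higher and 9 lower means, with a median of -0.02. Ccn2, a matricellular protein induced by TGF-beta, had values of 9.85, 9.87 and 10.02 in vehicle and 10.53, 10.37 and 10.55 in drug tumors, a difference of 0.57 ± 0.08 (SE, n = 3 per group; limma adjusted p = 0.231). The adjusted p of Ccn2 equalled the smallest of the whole array. All drug values of Ccn2 lay above all vehicle values, as in 7.73% of all genes. Ltbp1, which holds latent TGF-beta in the matrix, differed by -0.37 ± 0.15 (limma adjusted p = 0.475). Its drug values all lay below its vehicle values, as in 9.37% of all genes. No gene of the receptor, enzyme or TGF-beta list passed limma's adjusted threshold. Before adjustment 2 of 7, 1 of 16 and 2 of 17 reached 0.05, against 10.3% of all genes.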

How the data were processed

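The authors deposited 1 table of log2 expression values, with 22690 probe sets on 6 arrays. Affymetrix Expression Console is the only tool named, per the submitters' processing notes. How it summarised and normalized the arrays is not given here. The log2 scale was read from the range of the values. Detection calls were not used here. Probe sets were named through the platform's annotation of 2016: 20380 had 1 gene symbol, 691 had several, 1555 had none and 64 were controls. Single-symbol probe sets gave 12393 genes, each represented by its probe set with the highest mean.

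Groups were compared with limma 3.58.1 under R 4.3.3 (eBayes after lmFit, two-sided tests, p adjusted by Benjamini-Hochberg across the 12393 genes, threshold 0.05). SE is limma's moderated SE. With 3 samples per group the smallest two-sided p of an exact permutation test is 0.1. The fit was also run on simulated data in 20 runs, whose outcome is not given here and is not used as support. The members and lists were chosen with earlier results of these data known. Named genes are the 10 members, up to 4 genes per list with the smallest unadjusted p, and the 5 genes nearest to each class profile. Epcam, Krt8, Pdgfra and Thy1 were named in addition. The list of 14 epithelial markers had 9 higher means (median 0.08), and that of 10 macrophage markers 3 (median -0.26). Promoter sequences are from RefSeq (GRCm38.p6). Alternatives were 10 other settings and each of 6 arrays left out. Figures were drawn with matplotlib 3.10.9.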

Additional observations from a re-analysis of the deposited data

How the results depend on the processing

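No collagen passed the adjusted threshold in any of the 16 alternative settings, where the smallest adjusted p of a member was 0.350. Without drug replicate 2, 3 genes of the whole array passed, none of them a member, and in each other setting 0 passed, so the count ranged from 0 to 3 over the arrays left out. With each array left out in turn, the class differences ranged from 0.00 to 0.44 (fibrillar), 0.03 to 0.14 (basement membrane) and 0.01 to 0.45 (microfibril). The gene differences ranged from -0.044 to 0.40 for Col1a1, -0.12 to 0.21 for Col1a2, 0.08 to 0.68 for Col3a1, 0.10 to 0.53 for Col5a1, -0.00072 to 0.39 for Col5a2, -0.024 to 0.13 for Col4a1, 0.06 to 0.17 for Col4a2, 0.14 to 0.53 for Col6a1, -0.10 to 0.29 for Col6a2 and -0.012 to 0.52 for Col6a3. Vehicle replicate 2 gave the low end, except that drug replicate 3 did for Col4a2 and for the basement membrane class. With the fibroblast score as a covariate the sign turned for Col1a1 (-0.014), Col1a2 (-0.10) and Col6a2 (-0.071). In the other 9 settings all 10 differences stayed above 0. No paired analysis was possible because the labels give no replicate numbers shared between groups. Signal over background is unknown without detection calls, so low values such as those of Col4a3 and Mmp8 may lie close to background.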
